A study of Mus musculus with 36 samples.

Results

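The BCL2 family of cell death regulators was followed through 10 of the 24781 genes of the deposited count table, in tumour-associated macrophages (TAMs) and CD8+ T cells from the same kinds of tumour-bearing mice. The genes were selected on measured values: *Bcl2l11* was chosen by its higher count in TAMs of mice without B cells than in TAMs of wild-type mice, in these same libraries, and the other 9 were named as relatives that favour or oppose death. Family proteins act at the outer mitochondrial membrane, where BAX and BAK (encoded by *Bak1*) form the pores that release cytochrome c and commit a cell to apoptosis. The guards BCL2, BCL-XL (*Bcl2l1*), A1 (*Bcl2a1b*) and MCL1 hold these effectors back. The BH3-only proteins BIM (*Bcl2l11*), BID (*Bid*), PUMA (*Bbc3*) and NOXA (*Pmaip1*) bind the guards or trigger the effectors, and BIM and BCL2 are known for setting the survival of T cells, MCL1 and A1 for that of myeloid cells.

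MC38 colon adenocarcinoma tumours were taken 7 days after implantation, and 100 cells per library were sorted as CD45+CD11b+F4/80 high TAMs or CD45+TCRβ+CD8+ T cells. RNA was counted as barcoded molecules primed at the poly(A) tail, 1 count per molecule whatever the transcript's length, so molecule numbers of different genes can be set side by side. Each cell type had 3 groups of 6 libraries, 36 libraries in all, with 1 library per mouse. The purpose stated for the series was to see how B cells and the metabolite GABA (gamma-aminobutyric acid) act on macrophages and T cells of the tumour. WT mice were C57BL/6J or C57BL/6N with no treatment in the labels, which the study's methods call placebo. *muMt*-/- mice, C57BL/6J of a mutant line that makes no mature B cells, were likewise labelled as untreated. GABA-treated *muMt*-/- mice were of the same genotype and carried an implanted GABA pellet. No age is given in the labels of these libraries. There was no GABA-treated WT group, so the GABA pellet was examined only in mice without B cells, and a difference in substrain between WT and *muMt*-/- mice, if there was one, cannot be told apart from genotype. Synthetic spike-in RNA was added to the samples but was not used here.

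TAM libraries held more molecules than T cell libraries. The lowest, median and highest totals per TAM library were 206394, 242756 and 304100 molecules in WT mice, 100254, 149960 and 253608 in *muMt*-/- mice, and 151856, 192775 and 262606 in GABA-treated *muMt*-/- mice. Among CD8+ T cells they were 22896, 42065.5 and 76898 in WT, 51064, 67121.5 and 77839 in *muMt*-/- and 65356, 80283 and 98015 in GABA-treated mice. Median depth was therefore highest in WT among TAMs and lowest in WT among T cells. From *muMt*-/- to GABA-treated *muMt*-/- mice it rose in both cell types. Values below are normalized molecules, the counts divided by a DESeq2 size factor computed within 1 cell type or, where the cell types are compared, over all 36 libraries. Differences are log2 fold changes with standard errors (SE) from an edgeR quasi-likelihood fit, and a gene is said to have risen or fallen where its p, adjusted by Benjamini-Hochberg over all genes tested, was under 0.05. Genes were tested where the mean normalized number was above 1: 9 of the 10 members in TAMs, 8 in T cells and 9 over all libraries. *Bbc3* was below that level everywhere and *Bid* in T cells.

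The sorted cells carried the markers of their labels, with an exception among T cells. In *muMt*-/- T cell replicate 1 macrophage markers summed to 722 normalized molecules and T cell markers to 354. All 15 macrophage markers were detected in every TAM group, and their sum, led by the protease gene *Ctss*, had a median of 2058 normalized molecules in WT, 1814 in *muMt*-/- and 1909 in GABA-treated mice. Of 15 T cell markers 13 were in the table, and they summed to at most 9.30 in a TAM library, against T cell library medians of 676, 675 and 717 led by *Gzmb*. In T cells the macrophage markers moved with the groups. Their sum had a lowest, median and highest value of 17.8, 41.6 and 210 in WT, of 104, 149 and 722 in *muMt*-/- and of 30.6, 222 and 391 in GABA-treated mice, again with *Ctss* highest. The macrophage receptor gene *Adgre1* was at 0 in all 6 WT T cell libraries and in 3 of 6 in each of the other groups. All 13 macrophage markers tested had a higher estimate in *muMt*-/- than WT T cells, with a median log2 fold change of 2.23 against 0.15 for all genes, and in GABA-treated against WT T cells the median was 2.35 against 0.21. None passed the adjusted test, while 11 had an unadjusted p under 0.05 in each comparison and DESeq2 called 0. B cell markers were near absent, with *Pax5* at 0 in all 36 libraries and *Ms4a1* at 1 molecule in GABA-treated TAMs. Dendritic cell markers had medians of 14.5, 18.1 and 18.2 in the TAM groups, led by *Itgax*, and of 30.5, 29.2 and 31.6 in the T cell groups, led by *Ccr7*, a gene that T cells also express. Neutrophil markers had T cell medians of 0, 5.88 and 8.95, and tumour and stroma markers of 21.5, 66.3 and 22.2.

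The members differed widely in level. Of the 10 members, *Mcl1* was the most abundant in TAMs, at a mean 47.3% of the members' molecules in WT, 49.0% in *muMt*-/- and 47.6% in GABA-treated mice. The A1 gene *Bcl2a1b* followed, with median shares of 23.4%, 23.3% and 24.1%. *Bcl2* itself was rare in TAMs, at medians of 1.20%, 1.32% and 1.73%. In T cells *Mcl1* was again highest of the 10 on average, at 28.4%, 33.5% and 29.7%, and *Bcl2a1b* had medians of 22.5%, 22.4% and 24.1%. The A1 paralogs *Bcl2a1a* and *Bcl2a1d* are not among the 10. In WT mice they were counted at 335 and 416 molecules in TAMs and 37 and 60 in T cells. *Bcl2a1b* was counted at 443 and 63 there and *Mcl1* at 932 and 81. The rank of *Mcl1* is thus over A1 genes taken 1 by 1. The A1 counts may hold the same molecules, as described below, so they cannot be added and their sum was not ranked. *Bcl2* reached medians of 14.2%, 6.80% and 16.5% of the members' molecules in WT, *muMt*-/- and GABA-treated T cells. The guards together made up most of the family RNA in every library of either cell type. Their share ran from 75.3% to 83.7% in *muMt*-/- TAMs and from 62.5% to 81.9% in WT T cells, where the 4 BH3-only genes took a median of 24.1%, most of it *Bcl2l11*. Summed over the 10 members, median normalized molecules were 246, 302 and 271 in the TAM groups and 59.1, 62.8 and 61.3 in the T cell groups, each on the scale of its own cell type.

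**Figure D1:**
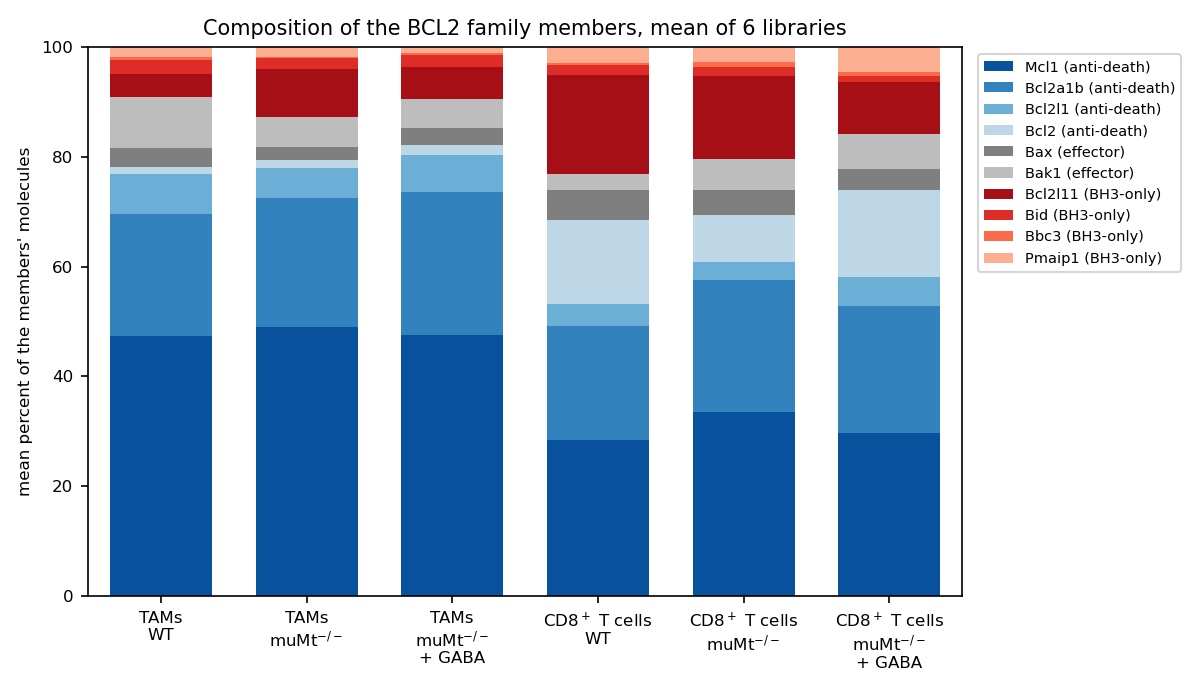
Mean percent of the 10 members' normalized molecules taken by each member (vertical axis, 0 to 100) in the 6 groups (horizontal axis, 6 libraries each), with guards in blue, effectors in grey and BH3-only genes in red. *Mcl1* and *Bcl2a1b* fill most of each TAM bar, and *Bcl2l11* takes a mean of 4.10% in WT, 8.85% in *muMt*-/- and 5.93% in GABA-treated TAMs, and of 18%, 15% and 9.56% in WT, *muMt*-/- and GABA-treated T cells.

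The comparison of *muMt*-/- with WT TAMs asks what the loss of B cells does to macrophages of the tumour, and since *Bcl2l11* was chosen on it, the members are described here without p. *Bcl2l11* was counted at 9 to 16 molecules per WT library (median 14.5) and at 11 to 29 (median 21.5) per *muMt*-/- library, despite the lower depth of the latter. In normalized molecules its lowest, median and highest values were 8.16, 10.1 and 12.6 in WT TAMs and 17.1, 25.8 and 35.8 in *muMt*-/- TAMs. The groups did not overlap, which the choice of the gene had fixed. The log2 fold change was 1.29 (SE 0.23, 95% interval 0.84 to 1.73), a 2.44-fold difference, and its median share of the members' molecules went from 4.25% to 8.55%. In bulk samples such as these, fewer cells of a type and less RNA per cell cannot be told apart.

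None of the other members had a difference of that size in TAMs. *Mcl1*, whose short-lived product binds BIM, had normalized values of 109, 112 and 143 in WT and 111, 152 and 170 in *muMt*-/- TAMs, and 4 of 6 *muMt*-/- libraries lay above every WT library (log2 fold change 0.26, SE 0.17). *Bcl2a1b* ran from 38.4 to 64.0 (median 57.6) in WT and from 58.5 to 77.7 (median 68.0) in *muMt*-/- TAMs, with 5 of 6 above every WT library (0.25, SE 0.16). *Bcl2l1* had medians of 18.5 and 15.6 (-0.16, SE 0.21), and *Bcl2*, at 24 molecules in all in 6 WT libraries and 18 in 6 *muMt*-/- libraries, had medians of 2.93 and 3.84 (0.20, SE 0.51, and -0.04 to 0.50 with 1 library left out).

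Of the effectors, *Bak1* had the larger difference. Its lowest, median and highest normalized values were 18.5, 21.5 and 30.8 in WT and 7.83, 16.3 and 26.1 in *muMt*-/- TAMs, with 4 of 6 *muMt*-/- libraries below every WT library (log2 fold change -0.59, SE 0.23, 95% interval -1.05 to -0.13). *Bax* overlapped between groups, at medians of 8.34 and 7.53 (-0.24, SE 0.31). The effectors' joint share of the members' molecules had a median of 13.2% in WT and 7.42% in *muMt*-/- TAMs. Among BH3-only genes, *Bid*, which links death receptors to mitochondria, had medians of 5.53 and 5.62 (-0.21, SE 0.38), and *Pmaip1* had medians of 4.91 and 4.04 (0.02, SE 0.49). The *Pmaip1* estimate was -0.02 with total molecules, -0.97 with log2 molecules per library as a covariate and -0.37 to 0.34 with 1 library left out. *Bbc3* was counted at 9 molecules in the 6 WT libraries and 3 in the 6 *muMt*-/- libraries, 3 of them at 0. *Bbc3*, under the level for testing, was not tested. By the same fit 2.05% of all 9469 genes passed in this comparison, 194 in number. Without WT TAM replicate 1 that count of all genes was 87, without WT TAM replicate 6 it was 125, without *muMt*-/- TAM replicate 4 it was 67 and without GABA-treated TAM replicate 1 it was 338. With log2 molecules per library as a covariate that count was 11, with no filter 343 and with filterByExpr 295.

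Nuclear RNA and some cell type markers moved with this comparison. Of 6 nuclear RNAs, *Malat1* (log2 fold change 0.82, SE 0.16, adjusted p = 0.00385) and *Neat1* (1.22, SE 0.18, adjusted p = 8.6e-05) rose, and their list summed to 377, 429 and 446 in WT and 570, 694 and 1327 in *muMt*-/- TAMs at its lowest, median and highest. Of 15 macrophage markers, *Itgam* rose (0.66, SE 0.17, adjusted p = 0.0277) and 3 fell, the complement genes *C1qb* (-0.62, adjusted p = 0.0414) and *C1qc* (-0.57, adjusted p = 0.0483) and the lysozyme gene *Lyz2* (-0.74, adjusted p = 0.024). *Cdh1*, of the tumour and stroma list, rose (1.11, SE 0.29, adjusted p = 0.0287), while the other 6 genes of that list that were tested had estimates under 0, with a list median of -0.34. The list summed to medians of 46.6 and 60.2, with *Col3a1* highest. Neutrophil markers, led by *Csf3r*, had medians of 5.03 and 15.5, and 10.3 in GABA-treated mice. The part of these and of the lower depth of *muMt*-/- TAM libraries in the values of *Bcl2l11* was not tested.

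**Figure D2:**
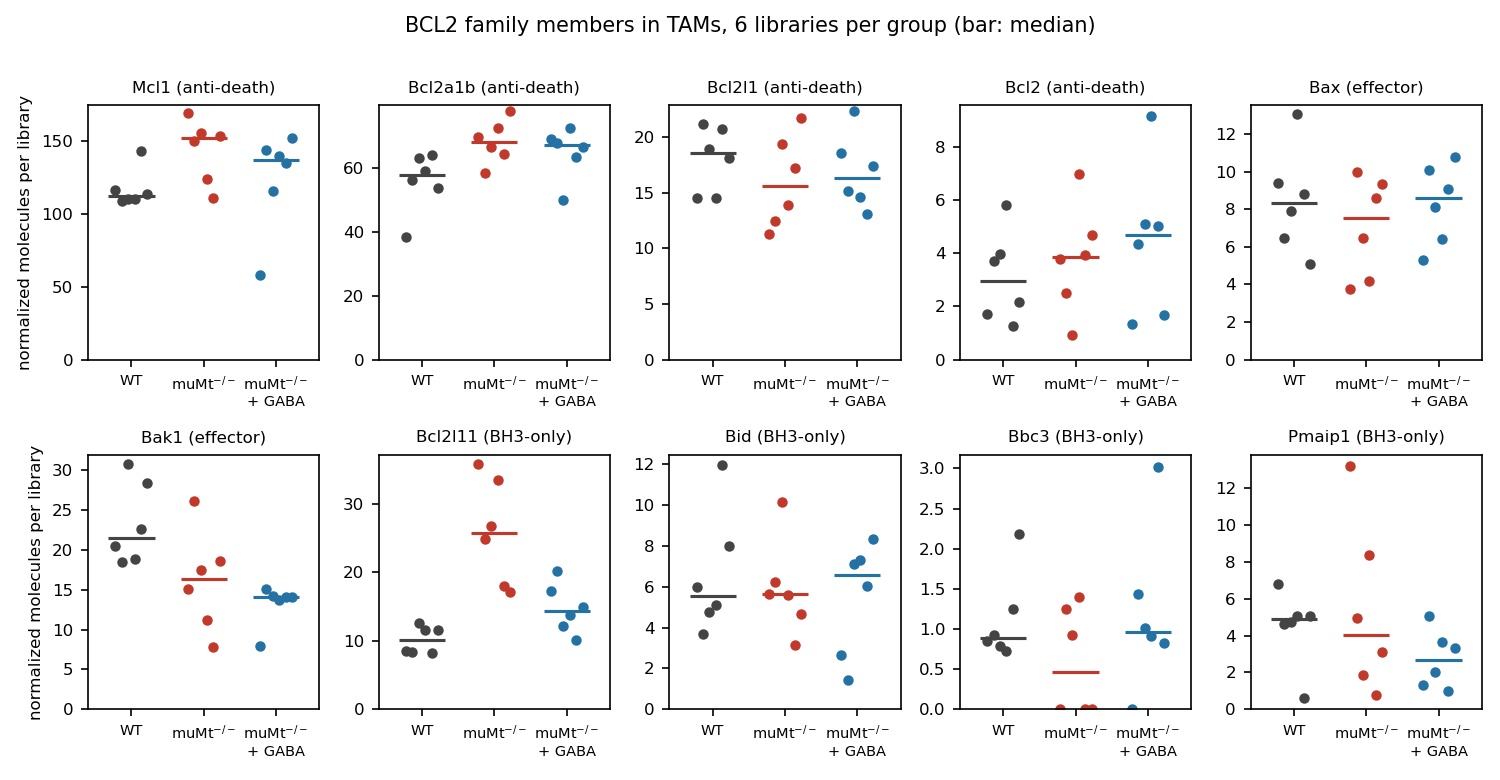
Normalized molecules per TAM library (vertical axis, own scale for each gene, starting at 0) of the 10 members in WT, *muMt*-/- and GABA-treated *muMt*-/- mice, with 1 point per library and a bar at the median. The *Bcl2l11* points run from 8.16 to 12.6 in WT and from 17.1 to 35.8 in *muMt*-/- TAMs, those of GABA-treated mice from 10.1 to 20.2, and the *Bak1* points of GABA-treated mice, 7.97 to 15.1, lie below all WT points.

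The comparison of GABA-treated with untreated *muMt*-/- TAMs asks what the metabolite does where B cells are absent. *Bcl2l11* is again given as a description, since the *muMt*-/- libraries are among those it was chosen in. In GABA-treated TAMs its lowest, median and highest normalized values were 10.1, 14.3 and 20.2, so that 4 of 6 libraries lay below every untreated *muMt*-/- library. The log2 fold change was -0.74 (SE 0.22, 95% interval -1.17 to -0.31), or 0.598-fold. Set against WT, which shares these GABA-treated libraries, 4 of 6 lay above every WT library and the log2 fold change of *Bcl2l11* was 0.55 (SE 0.24, 95% interval 0.08 to 1.01). The median share of *Bcl2l11* in the members' molecules was 5.14% in GABA-treated TAMs. Summed nuclear RNA had medians in the same order, 429 in WT, 694 in *muMt*-/- and 471 in GABA-treated TAMs, and 2 of the 6 nuclear RNAs were called by DESeq2 and 0 by edgeR between the latter 2 groups. Depth was lowest in *muMt*-/- TAMs too, and the part of either in *Bcl2l11* was not tested.

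*Bcl2l11* apart, 8 members were tested between GABA-treated and untreated *muMt*-/- TAMs. By edgeR 0 passed the adjusted test, 0 had an unadjusted p under 0.05 and DESeq2 called 0, beside 0.0211% of all genes at the adjusted and 8.46% at the unadjusted threshold. The adjusted share stood for 2 genes, *BC018473* (log2 fold change -2.38) and *Lrrc17* (1.58), chosen after their values were seen. The count was 36 without GABA-treated TAM replicate 1, 12 without *muMt*-/- TAM replicate 5 and 6 without WT TAM replicate 1, and more than doubled without *muMt*-/- TAM replicate 2 or GABA-treated TAM replicate 2. It was 60 by DESeq2, 51 with no filter and 7 with total molecules, and at least doubled with the covariate and the replicate block. *Mcl1* had values of 58.4, 137 and 152 in GABA-treated mice (log2 fold change -0.17, SE 0.17, adjusted p = 0.837), with 1 of 6 libraries below every untreated library. Its estimate was -0.24 to -0.02 with 1 library left out. *Bcl2a1b*, at 49.8, 67.1 and 72.3, was close to the untreated group (-0.04, SE 0.16). *Bcl2l1* (0.06, SE 0.22) and *Bcl2* (0.35, SE 0.49, and 0.001 to 0.58 with 1 library left out) overlapped between the groups too. Of the remaining members the largest estimate was that of *Pmaip1* (-0.58, SE 0.55, adjusted p = 0.817), counted at 22 and 19 molecules over 6 libraries each. *Bak1* (-0.19, SE 0.26), *Bax* (0.25, SE 0.32) and *Bid* (-0.09, SE 0.41) had intervals that spanned 0, and *Bbc3*, at 8 molecules in the GABA-treated group, was not tested.

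Against WT TAMs, *Bak1* had the largest estimate in size of the members tested in GABA-treated mice. Its values of 7.97, 14.1 and 15.1 in GABA-treated mice lay below the WT range of 18.5 to 30.8 in 6 of 6 libraries. The log2 fold change of *Bak1* was -0.78 (SE 0.23, 95% interval -1.23 to -0.34), yet it missed the threshold over all genes (adjusted p = 0.283). The share of all genes without overlap is not given here. Of 15 macrophage markers 11 also had estimates under 0, with 0 passing by edgeR and 2 called by DESeq2, and median depth was lower than in WT. The part of either in *Bak1* was not tested. Of the 8 members tested in this comparison 0 passed the edgeR test, 1 had an unadjusted p under 0.05 and DESeq2 called 0, beside 0.0739% and 7.02% of all genes at these thresholds. The adjusted share, 7 genes, was 14 by DESeq2, 63 with no filter, and smaller by more than 1.5 times with filterByExpr and without WT TAM replicate 1, 2, 3, 4 or 6, *muMt*-/- TAM replicate 1 or 2 or GABA-treated TAM replicate 1, 2 or 3. *Bcl2a1b* had 4 of 6 GABA-treated libraries above every WT library (0.21, SE 0.15, adjusted p = 0.843). *Bcl2* (0.55, SE 0.46), *Mcl1* (0.10), *Bcl2l1* (-0.10), *Bid* (-0.30) and *Pmaip1* (-0.55) overlapped with WT. *Bax* had an estimate of 0.01 that became -0.01 when libraries were scaled by total molecules. The effectors' share of the members' molecules was 7.14% to 9.40% in GABA-treated and 10.7% to 15% in WT TAMs, without overlap, a difference in level that was not tested. That share includes *Bak1*, so it is not a result apart from the values of *Bak1*.

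Around the family, 105 genes in 8 lists were counted in the same fits: other BCL2 relatives, the mitochondrial pathway downstream of BAX and BAK, death receptors, regulators of the BIM and MCL1 proteins, FOXO factors and targets, p53 and targets, the integrated stress response, and survival genes induced by NF-kB. In *muMt*-/- against WT TAMs, 2 of the 90 tested rose and 0 fell, or 2.22%, 3 were called by DESeq2, and an unadjusted p under 0.05 was reached by 12 with a higher and 2 with a lower level, beside 2.05% of all genes at the adjusted and 14.9% at the unadjusted threshold. *Gsk3b*, a kinase that marks MCL1 for destruction, rose by a log2 fold change of 0.93 (SE 0.20, adjusted p = 0.00669). *Gadd45b*, a stress gene induced by NF-kB, rose by 1.14 (SE 0.30, adjusted p = 0.0317). The medians of the lists were 0.32 for the other BCL2 relatives (7 of 9 with an estimate above 0), 0.35 for NF-kB survival genes (9 of 10), 0.11 for death receptors (8 of 14), 0.02 for BIM and MCL1 regulators (7 of 14) and 0.03 for the stress response (4 of 8). For the mitochondrial pathway the median was -0.12 (6 of 17), for FOXO -0.07 (4 of 10) and for p53 -0.05 (5 of 12), where that of all genes was -0.05. FOXO factors and p53 are known to induce *Bcl2l11* and *Bbc3* respectively. In the FOXO list 0 of 10 genes passed and 2, both higher, had an unadjusted p under 0.05. In the p53 list 0 of 12 reached either threshold. The part of either in *Bcl2l11* or *Bbc3* was not tested.

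With GABA, 0 of these 90 genes passed in TAMs against untreated *muMt*-/- mice by edgeR, 8 with a higher and 8 with a lower level had an unadjusted p under 0.05, beside 8.46% of all genes, and DESeq2 called 1. The highest estimate among those with a mean of at least 5 was that of the asparagine synthetase gene *Asns* (log2 fold change 1.52, SE 0.44) and the lowest that of *Gadd45b* (-0.96, SE 0.31). Against WT TAMs 0 passed, 6 with a higher and 3 with a lower level had an unadjusted p under 0.05, beside 7.02% of all genes, and DESeq2 called 0, between *Irs2* (0.99, SE 0.51), an insulin receptor substrate, and *Parp1* (-0.68, SE 0.21), a DNA repair enzyme cleaved by caspases. *Gas5*, of the nuclear RNA list, rose in GABA-treated against WT TAMs (0.95, SE 0.20, adjusted p = 0.0456), while that list summed to 426, 471 and 702.

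CD8+ T cells give libraries that the choice of *Bcl2l11* did not use. *Bcl2l11* had lowest, median and highest normalized values of 3.43, 11.2 and 19.2 in WT, 6.10, 10.1 and 15.2 in *muMt*-/- and 2.48, 5.07 and 11.8 in GABA-treated T cells, at 44, 67 and 48 molecules over each group. The *muMt*-/- range lay inside the WT range. Without B cells its log2 fold change was 0.05 (SE 0.36, 95% interval -0.66 to 0.76, adjusted p = 0.998), and the sign turned with DESeq2 size factors (-0.06) and with total molecules (-0.08). Its normalized values thus spread more widely in T cells of WT mice than in those of the other groups.

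In T cells of *muMt*-/- against WT mice, 0 of 8 members passed the edgeR test, 1 had an unadjusted p under 0.05 and DESeq2 called 0. Of all 6663 genes tested 0% passed and 6.17% had an unadjusted p under 0.05, while 13 genes passed without WT T cell replicate 5, the library with the highest sum of macrophage markers in its group, and 72, all higher, with no filter. *Bcl2*, the guard of resting T cells, had values of 6.19, 9.69 and 12.8 in WT and 2.97, 5.08 and 8.33 in *muMt*-/- T cells, with 4 of 6 *muMt*-/- libraries below every WT library (log2 fold change -0.68, SE 0.34, adjusted p = 0.806). *Bak1*, from 0 to 4.81 in WT and from 1.67 to 6.54 in *muMt*-/- T cells, had an estimate of 0.97 (SE 0.60, adjusted p = 0.85) on 9 and 26 molecules. The groups of these 2 genes overlapped. The other guards *Mcl1* (0.36, SE 0.28), *Bcl2a1b* (0.28, SE 0.28) and *Bcl2l1* (-0.44, SE 0.63) and the effector *Bax* (-0.23) had intervals around 0. *Pmaip1* had an estimate of 0.04 that was -0.05 with DESeq2 size factors and -0.06 with total molecules. The median log2 fold change of all genes was 0.15 and shifted by -0.10 under total molecules, so that these small estimates were of the size of the shift. Macrophage markers and depth were higher in *muMt*-/- than WT T cell libraries, and their part in these values was not tested.

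With the GABA pellet, *Bcl2* in T cells ran from 6.40 to 11.8 (median 10.4), and 4 of 6 libraries lay above every untreated *muMt*-/- library. Its log2 fold change was 0.90 (SE 0.31, 95% interval 0.29 to 1.52) and its adjusted p was 0.999. The *Bcl2* level thus had its lowest median in *muMt*-/- T cells, and neither step passed over all genes. Tumour and stroma markers had medians of 66.3 in untreated and 22.2 in GABA-treated *muMt*-/- T cells. Of 4 tested, 1 higher and 2 lower had an unadjusted p under 0.05 by edgeR and 0 passed. Their part in *Bcl2* was not tested. *Bcl2l11* had 4 of 6 GABA-treated libraries below every untreated library (-0.68, SE 0.36, 95% interval -1.38 to 0.02, adjusted p = 0.999). *Bcl2l1* (0.81, SE 0.56) and *Pmaip1* (0.58, SE 0.59) had estimates above 0 with wide errors. *Mcl1* (-0.21), *Bax* (-0.30), *Bak1* (0.08) and *Bcl2a1b* (-0.02) lay nearer 0. In this comparison 0 of 8 members passed the edgeR test, 1 had an unadjusted p under 0.05 and DESeq2 called 0, beside 0% and 3.71% of all genes. With no filter 11 genes passed, with the covariate 6, and the count was not 0 with the replicate block or without WT T cell replicate 6, *muMt*-/- T cell replicate 6 or GABA-treated T cell replicate 2.

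GABA-treated against WT T cells share libraries with both comparisons above. *Bcl2l11* had a log2 fold change of -0.63 (SE 0.38, adjusted p = 0.767), which became 0.17 with log2 molecules per library as a covariate. *Bak1* had 1.05 (SE 0.58, adjusted p = 0.731), with values of 3.10, 3.45 and 5.49 in GABA-treated mice and 4 of 6 WT libraries below all of them. Macrophage markers and depth were also higher in GABA-treated than WT T cell libraries, and their part in these values was not tested. *Bcl2* (0.23, SE 0.31), *Pmaip1* (0.62), *Bax* (-0.53), *Bcl2l1* (0.37, but -0.11 with that covariate) and *Bcl2a1b* (0.26) overlapped between the groups. *Mcl1* had 0.15 (SE 0.28) and changed sign with DESeq2 size factors (-0.02) and total molecules (-0.03), while the median of all genes, 0.21, shifted by -0.15 under each. By edgeR 0 of 8 members passed, 0 had an unadjusted p under 0.05 and DESeq2 called 0, beside 0% and 6.89% of all genes. With no filter 64 genes passed, and the count was not 0 by DESeq2, with DESeq2 size factors, total molecules or the replicate block, or without WT T cell replicate 6, *muMt*-/- T cell replicate 1 or 3 or GABA-treated T cell replicate 1. *Bid* and *Bbc3* were too rare in T cells to test: *Bid* was counted at 6, 8 and 6 molecules in WT, *muMt*-/- and GABA-treated T cells, and *Bbc3* at 2, 4 and 4.

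**Figure D3:**
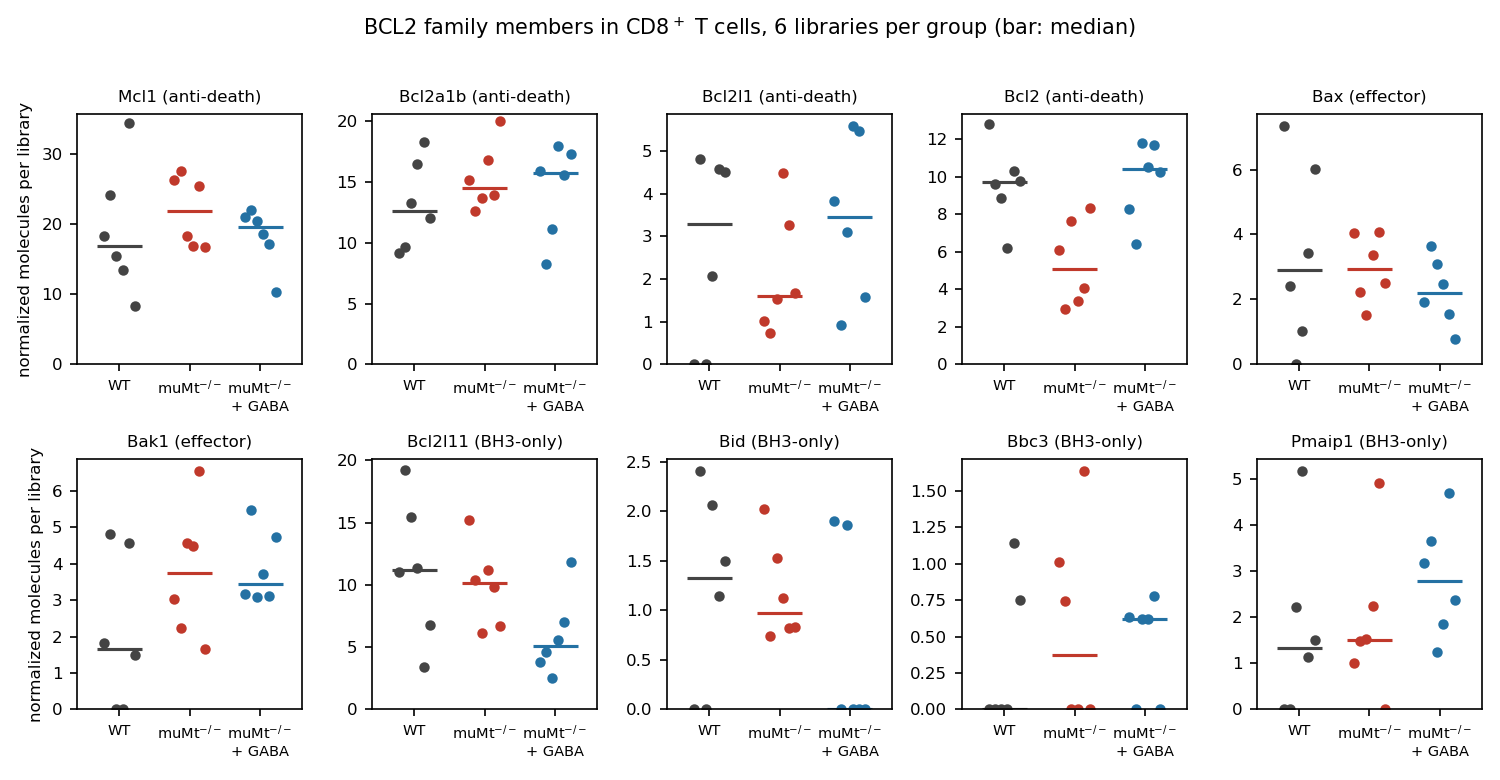
Normalized molecules per CD8+ T cell library (vertical axis, own scale for each gene, starting at 0) of the 10 members in the 3 groups of mice, with 1 point per library and a bar at the median. *Bcl2l11* overlaps in all groups, from 3.43 to 19.2 in WT, 6.10 to 15.2 in *muMt*-/- and 2.48 to 11.8 in GABA-treated mice, and *Bcl2* has medians of 9.69, 5.08 and 10.4.

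Of the 8 lists around the family, 71 genes were tested in T cells and 0 passed the edgeR test in any of the 3 comparisons. For *muMt*-/- against WT, 6 with a higher and 0 with a lower level had an unadjusted p under 0.05, beside 6.17% of all genes, and DESeq2 called 0, between the cell cycle inhibitor gene *Cdkn1a* (log2 fold change 1.07, SE 0.43) and *Traf1* (-0.45, SE 0.45), a signalling adaptor of TNF receptors. With GABA against untreated, 0 higher and 2 lower did, beside 3.71% of all genes, and DESeq2 called 0, between *Klf2* (0.56, SE 0.36), a FOXO target of resting T cells, and *Gsk3b* (-0.84, SE 0.31). Against WT, 4 higher and 2 lower did, beside 6.89% of all genes, and DESeq2 called 0, between *Txnip* (1.0, SE 0.41), an inhibitor of thioredoxin, and *Tnfaip3* (-0.55, SE 0.26), which encodes the NF-kB brake A20.

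Of the guards, *Bcl2* differed most between TAMs and T cells. It had lowest, median and highest normalized values over all libraries of 0.748, 1.71 and 3.40 in WT TAMs and of 10.7, 16.4 and 22.4 in WT T cells. Every TAM library lay below every T cell library in each of the 3 groups of mice. The log2 fold change of TAMs over T cells was -2.92 (SE 0.39, adjusted p = 1.04e-08) in WT, -2.07 (SE 0.43, adjusted p = 7.31e-05) in *muMt*-/- and -2.65 (SE 0.34, adjusted p = 1.47e-09) in GABA-treated mice. *Mcl1* went the other way. It had values of 62.9, 65.8 and 85.3 in TAMs and 13.8, 28.9 and 56.8 in T cells of WT mice, of 65.4, 91.2 and 102 and of 28.4, 36 and 46.9 in *muMt*-/- mice, and of 33.8, 81.4 and 89.6 and of 17.9, 32.8 and 36.4 in GABA-treated mice. TAM libraries above every T cell library numbered 6, 6 and 5 of 6. *Mcl1* was higher in TAMs by 1.32 (SE 0.24, adjusted p = 1.63e-05), 1.20 (SE 0.22, adjusted p = 2.63e-05) and 1.21 (SE 0.22, adjusted p = 1.88e-05) on the log2 scale.

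The remaining guards were also higher in TAMs, with calls that rested on fewer libraries. *Bcl2l1*, whose product is BCL-XL, had medians of 10.8 in TAMs and 5.55 in T cells of WT mice and no overlap (log2 fold change 1.18, SE 0.42, adjusted p = 0.0181). It rested on 14 molecules in WT T cells, with 2 of those libraries at 0. The call was lost without WT T cell replicate 1, 3 or 4 or WT TAM replicate 5, at adjusted p from 0.0533 to 0.0741, and with total molecules (0.118) or DESeq2 (0.0733), within a range of 0.016 to 0.118 over the alternatives. In *muMt*-/- mice, where 4 of 6 TAM libraries were above every T cell library, *Bcl2l1* was higher by 1.47 (SE 0.43, adjusted p = 0.00372), and in GABA-treated mice, where 3 of 6 were, it did not pass (0.67, SE 0.33, adjusted p = 0.129).

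*Bcl2a1b* was higher in TAMs by 0.67 (SE 0.23, adjusted p = 0.0202) in WT, 0.63 (SE 0.20, adjusted p = 0.0183) in *muMt*-/- and 0.59 (SE 0.20, adjusted p = 0.0214) in GABA-treated mice, with 5, 6 and 5 of 6 TAM libraries above every T cell library. Each of these calls was lost under at least 1 alternative and without some libraries, as was that of *Bcl2l1* in WT mice. In WT mice the *Bcl2a1b* call was lost with DESeq2 size factors (adjusted p = 0.0969), total molecules (0.332), DESeq2 (0.106) and the filterByExpr filter (0.111), a range of 0.0258 to 0.332 over the alternatives, and without WT T cell replicate 1 or 2, WT TAM replicate 2, 3, 4, 5 or 6 or *muMt*-/- TAM replicate 3, from 0.0509 to 0.0914. In *muMt*-/- mice it was lost with total molecules (0.161, range 0.00449 to 0.161) and without WT TAM replicate 2, *muMt*-/- TAM replicate 3 or 4 or GABA-treated TAM replicate 4, from 0.0561 to 0.0787. In GABA-treated mice it was lost with total molecules (0.0876) and with no filter (0.0677), in a range of 0.00345 to 0.0876, and without GABA-treated T cell replicate 2, 3 or 5, WT TAM replicate 2, *muMt*-/- TAM replicate 3 or 4 or GABA-treated TAM replicate 1, 2 or 4, from 0.0571 to 0.125.

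Of the effectors, *Bak1* was higher in TAMs of WT mice. It had values of 10.7, 12.6 and 17.6 in TAMs and 0, 2.85 and 8.26 in T cells of WT mice, with no overlap (log2 fold change 2.15, SE 0.51, adjusted p = 5.83e-05). WT T cell libraries held at most 4 *Bak1* molecules, and replicates 3 and 4 held 0. In *muMt*-/- mice the medians of *Bak1* were 9.77 and 6.23 (0.55, adjusted p = 0.294) and in GABA-treated mice 8.32 and 5.82 (0.25, adjusted p = 0.661), and the cell types overlapped. *Bax* overlapped in all 3 groups of mice (-0.16, -0.18 and 0.35 in WT, *muMt*-/- and GABA-treated mice).

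Of the BH3-only genes, *Bcl2l11* could be tested between cell types in GABA-treated mice, whose TAM libraries its choice did not use. It had values of 5.95, 8.48 and 11.9 in TAMs and 4.11, 8.54 and 20.6 in T cells there, overlapping throughout (log2 fold change -0.20, SE 0.31, 95% interval -0.80 to 0.40, adjusted p = 0.73). As a description, *Bcl2l11* ran from 4.80 to 7.22 (median 5.85) in TAMs and 5.68 to 33.0 (median 19.4) in T cells of WT mice (-1.31, SE 0.32, 95% interval -1.94 to -0.68). In *muMt*-/- mice the medians of *Bcl2l11* were 15.4 and 17.0 (-0.12, SE 0.28). The order of its 6 medians therefore ran from WT TAMs through GABA-treated TAMs and T cells to *muMt*-/- TAMs and T cells and WT T cells, and each neighbouring pair in that order overlapped.

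*Pmaip1*, which encodes the MCL1 antagonist NOXA, was lower in TAMs than T cells of GABA-treated mice (log2 fold change -1.42, SE 0.56, adjusted p = 0.0486), at values of 0.595, 1.57 and 2.98 against 2.05, 4.71 and 7.98, with 4 of 6 TAM libraries below every T cell library. It rested on 19 and 23 molecules. The *Pmaip1* call was lost with DESeq2 size factors (adjusted p = 0.0553) and DESeq2 (0.0567), in a range of 0.0299 to 0.0567 over the alternatives. It was also lost, at 0.05 to 0.121, without WT T cell replicate 3 or 6, *muMt*-/- T cell replicate 2 or 3, GABA-treated T cell replicate 1, 2, 4, 5 or 6, *muMt*-/- TAM replicate 2 or 6 or GABA-treated TAM replicate 1, 3, 5 or 6. In WT (-0.21, adjusted p = 0.864) and *muMt*-/- mice (-0.23) *Pmaip1* did not pass. *Bid* had estimates of 0.97, 0.82 and 1.32 and did not pass (adjusted p = 0.276, 0.354 and 0.112). Without GABA-treated T cell replicate 1 or 3 *Bid* passed in GABA-treated mice, at adjusted p = 0.0389 and 0.0436. *Bbc3*, under the level for testing, had WT medians of 0.511 in TAMs and 0 in T cells.

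Counted together, 5 of 8 members passed in WT mice, 4 higher and 1 lower in TAMs, where 22.7% of all 8477 genes passed, 16.8% higher and 5.99% lower. In *muMt*-/- mice 4 of 8 passed, 3 higher and 1 lower, beside 21.4% of all genes, 13.6% higher and 7.71% lower. In GABA-treated mice, with *Bcl2l11* counted, 4 of 9 passed, 2 higher and 2 lower, beside 22% of all genes, 14.1% higher and 7.93% lower. DESeq2 called 3, 4 and 3 members. The share of all genes without overlap between the cell types is not given here. The median log2 fold change of all genes was 0.36, 0.10 and 0.12, and with total molecules it shifted by -0.32, -0.23 and -0.14. DESeq2 size factors and the DESeq2 fit shifted it by -0.16 each in WT mice. Of all calls in WT mice 73.7% were higher in TAMs, against 65.0% with DESeq2 size factors, 56.0% with total molecules and 61.0% with DESeq2, and in *muMt*-/- mice 63.9% against 46.3% with total molecules. No member changed direction between cell types under these scalings. Macrophage markers in T cell libraries stood at a median 1.92%, 11.6% and 14.5% of their TAM level in WT, *muMt*-/- and GABA-treated mice. By the same measure *Mcl1* in T cells stood at 47.0%, 42.3% and 41.9% of its TAM level, *Bak1* at 26.5%, 65.2% and 84.5% and *Bcl2l1* at 42.8%, 37.2% and 58.1%. The part of those markers in the members' differences was not tested.

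**Figure D4:**
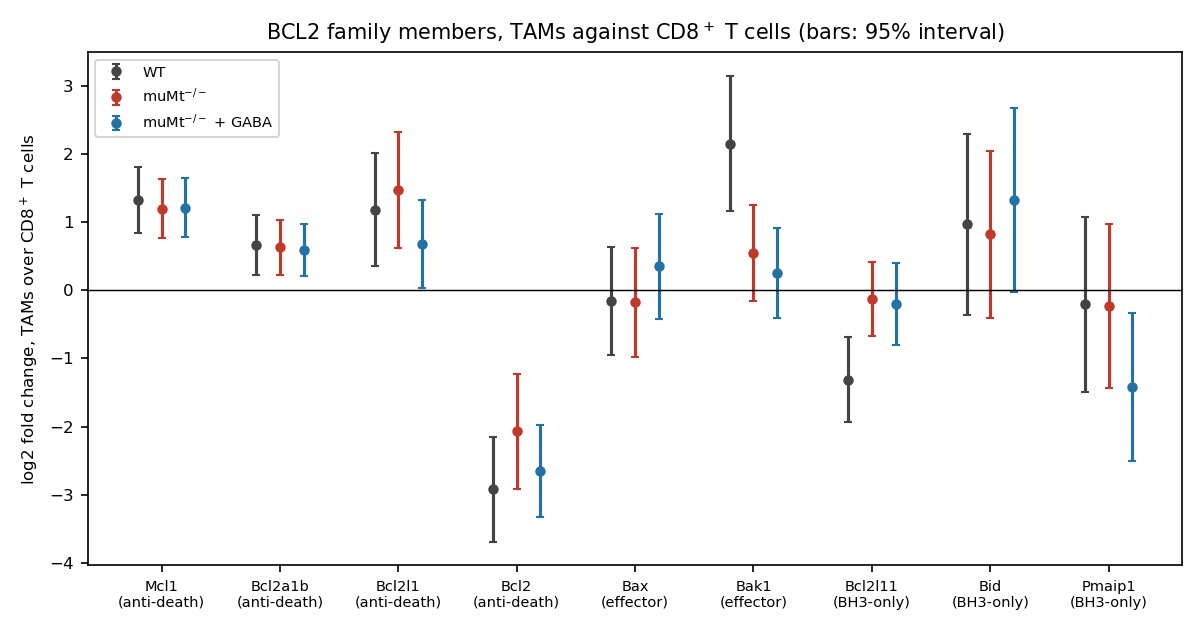
Log2 fold change of TAMs over CD8+ T cells (vertical axis) with its 95% interval for the 9 members tested (horizontal axis, by role) in WT, *muMt*-/- and GABA-treated *muMt*-/- mice, 6 libraries per cell type and group. *Bcl2* lies at -2.92, -2.07 and -2.65 and *Mcl1* at 1.32, 1.20 and 1.21, and the *Bcl2l11* estimates of WT and *muMt*-/- mice, -1.31 and -0.12, are descriptions.

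Of the 84 list genes tested between the cell types, 18 were higher and 8 lower in TAMs of WT mice (31%), 16 and 9 in *muMt*-/- mice (29.8%) and 20 and 11 in GABA-treated mice (36.9%), beside 22.7%, 21.4% and 22% of all genes. Values in the following sentences are log2 fold changes in the order WT, *muMt*-/- and GABA-treated mice where 3 are given. Molecules given in their place are raw group totals. TAM libraries were deeper than T cell libraries, so these totals do not stand for fold changes. Among BCL2 relatives, the A1 paralogs *Bcl2a1a* (1.02, 0.89 and 0.92) and *Bcl2a1d* (0.65, 0.70 and 0.58) and the mitophagy gene *Bnip3* (1.57, 1.19 and 1.60) were higher in TAMs, as was the BH3-only gene *Bad* in GABA-treated mice (1.36). The paralogs may share molecules with *Bcl2a1b*, whose calls were lost under some settings, and alternatives were not run for list genes. Downstream of the effectors, the mitochondrial channel gene *Vdac2* was higher in all 3 groups (1.18, 0.80 and 0.80), *Vdac1* in WT (0.93) and GABA-treated mice (0.74), *Vdac3* in GABA-treated mice (1.01), *Parp1* in WT (0.97) and *muMt*-/- mice (1.13) and the caspase inhibitor gene *Xiap* in *muMt*-/- (1.12) and GABA-treated mice (0.72). *Casp9*, at 21 molecules in WT TAMs and 0 in WT T cells, was higher in TAMs of WT mice.

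Of the death receptor list, the TNF receptor gene *Tnfrsf1a* was higher in TAMs (2.42, 2.60 and 1.45), and the killer ligand gene *Fasl* was lower in all 3 groups, at 1, 0 and 1 molecules in TAMs and 39, 59 and 64 in T cells. *Ripk1* in WT (1.71), *Cflar* in *muMt*-/- (0.84) and the necroptosis genes *Ripk3* (1.83) and *Mlkl* (34 molecules in TAMs, 3 in T cells) in GABA-treated mice were higher, and *Tnfsf10*, the TRAIL gene, in *muMt*-/- (-1.49) and *Birc2* in GABA-treated mice (-1.54) were lower. Of the regulators of BIM and MCL1, *Gsk3b* was higher in *muMt*-/- (0.98) and GABA-treated mice (1.24), the kinase gene *Mapk3* in WT (0.99) and GABA-treated mice (1.49), the dynein light chain gene *Dynll1*, whose product holds BIM, in *muMt*-/- mice (0.69), and *Usp9x*, a deubiquitinase of MCL1, in GABA-treated mice (0.95).

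The FOXO list held T cell genes that were lower in TAMs, *Foxo1* itself (-2.79, -1.91 and -2.64), the interleukin 7 receptor gene *Il7r* in WT (-1.75) and GABA-treated mice (-1.49) and *Klf2* in GABA-treated mice (-1.41). *Bcl6* was higher in WT (89 molecules in TAMs, 1 in T cells) and *muMt*-/- mice (1.41), *Txnip* in WT (1.11), *Irs2* in *muMt*-/- (42 molecules in TAMs, 3 in T cells) and *Ccng2* in GABA-treated mice (2.04). Of p53 targets, *Cdkn1a* was higher in WT (1.79) and *muMt*-/- mice (0.98) and *Trp53inp1* lower in all 3 groups (-2.38, -1.76 and -1.70). Stress genes were higher in TAMs where they passed: *Atf3* (3.22, 1.80 and 1.71), the chaperone gene *Hspa5* (1.14, 1.20 and 0.66) and *Xbp1* in WT (1.23) and GABA-treated mice (0.77). NF-kB targets went both ways, with *Ier3* higher (1.63, 1.25 and 1.79), *Sod2* higher in WT (1.69) and GABA-treated mice (1.19), and *Nfkbia* (-0.82, -0.96 and -1.23), *Gadd45b* (-1.59, -1.07 and -2.08), *Tnfaip3* (-2.44, -2.23 and -2.12) and *Traf1* (-4.47 in WT, 2 molecules in TAMs and 32 in T cells of *muMt*-/- mice, and -2.78 in GABA-treated mice) lower.

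Whether an effect differed between the cell types was read from the difference of effects over all 36 libraries. For GABA in *muMt*-/- mice, 0 of the 8 members tested passed by edgeR, 0 had an unadjusted p under 0.05 and DESeq2 called 0, beside 0% and 4.53% of all genes. With no filter 17 genes passed, and the count was not 0 with the replicate block or without *muMt*-/- T cell replicate 6 or GABA-treated T cell replicate 1. The largest TAM minus T cell differences on the log2 scale were -1.18 for *Pmaip1* (SE 0.83, adjusted p = 0.994) and -0.79 for *Bcl2l1* (SE 0.54, adjusted p = 0.994). *Bcl2* had -0.58 (SE 0.55), *Bax* 0.53, *Bid* 0.50, *Bak1* -0.29 and *Mcl1* 0.02. *Bcl2a1b* had -0.04, which became 0.06 with total molecules. *Bcl2l11*, given as a description, had -0.07 (SE 0.41), which became 0.02 with total molecules, with a 95% interval of -0.88 to 0.74.

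For the loss of B cells the same difference includes the contrast *Bcl2l11* was chosen on, and members are given there without p. *Bcl2l11* had 1.19 (SE 0.42, 95% interval 0.36 to 2.02), *Bak1* -1.61 (SE 0.62) and *Bcl2* 0.85 (SE 0.58). The estimate of *Bak1* was below 0 in TAMs and above 0 in T cells, where WT libraries held at most 4 molecules of it. In the same difference 15 of 15 macrophage markers had estimates under 0, with a median of -2.51, 12 at an unadjusted p under 0.05, 0 passing by edgeR and 0 by DESeq2, and their part in *Bak1* was not tested. The other members tested lay between -0.15 for *Bid* and 0.28 for *Bcl2l1* here, where the median of all genes was -0.30 and shifted by 0.19 with DESeq2 size factors and by 0.22 with DESeq2, and 0.0118% of all genes passed. That share was 1 gene, *BC018473* (-2.57), chosen after its value was seen, and the count was 0 without WT T cell replicate 4 or 6, *muMt*-/- T cell replicate 1 or *muMt*-/- TAM replicate 5. It was 9 without WT T cell replicate 5, 7 without GABA-treated TAM replicate 1 and above 1 without *muMt*-/- T cell replicate 2 or 6. By setting it was 79 with no filter, 12 with the replicate block, 9 with DESeq2 and 0 with DESeq2 size factors, total molecules or filterByExpr. With DESeq2 size factors the signs of *Bax*, *Bcl2a1b*, *Bid*, *Mcl1* and *Pmaip1* turned here. Of the 84 list genes, 0 passed the edgeR test for GABA, with 4 above 0 and 3 under 0 reaching an unadjusted p under 0.05 and 0 by DESeq2, between the channel gene *Vdac3* (1.18, SE 0.47) and *Tnfrsf1a* (-1.15, SE 0.54). For B cell loss 0 passed, with 2 above 0 and 7 under 0 reaching an unadjusted p under 0.05, as did 10.1% of all genes, and 0 by DESeq2, between *Il7r* (1.0, SE 0.44) and *Atf3* (-1.42, SE 0.85).

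The count of *Bcl2a1b* may hold molecules of its paralogs. Over all 36 libraries *Bcl2a1b* had 1492 molecules, *Bcl2a1d* 1426 and *Bcl2a1a* 1154. *Bcl2a1b* and *Bcl2a1d* were equal in 10 libraries and never differed by more than 11 molecules, which in 36 of 36 libraries was less than the square root of their sum. Their annotated transcripts are 99.1% identical, those of *Bcl2a1a* and *Bcl2a1b* 98.2%, and the last 150 bases of *Bcl2a1b* and *Bcl2a1d*, next to the poly(A) tail where molecules were primed, matched at 100% of aligned bases. How molecules that match several genes were counted is not stated, so the *Bcl2a1b* level stands for A1 genes that cannot be told apart.

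The genes whose levels ran most like *Bcl2l11* are given by Pearson r of log2 normalized molecules plus 1, as a description over libraries that share groups and depth. Over 18 TAM libraries and 5309 genes, they were *Dennd4c* (0.837), *Zfand5* (0.837), *Skil* (0.834), *Gsk3b* (0.822) and *Ddx5* (0.819). In 18 T cell libraries and 1882 genes, they were *Ifi203* (0.798), *Zcchc6* (0.762), *Snord118* (0.733), *Rps26* (0.709) and *Myl12b* (0.707). No gene was common to these lists. For the other members the closest genes in TAMs were *Rgs1* for *Mcl1* (0.914), *Bcl2a1d* for *Bcl2a1b* (0.976), *Mapk3* for *Bcl2l1* (0.759), *Mnat1* for *Bcl2* (0.757), *Fam104a* for *Bax* (0.789), *Ucp2* for *Bak1* (0.819), *Snap29* for *Bid* (0.748), *Rnf187* for *Bbc3* (0.780) and *Reep3* for *Pmaip1* (0.818). In T cells they were *BC018473* for *Mcl1* (0.652), *Bcl2a1d* for *Bcl2a1b* (0.912), *Psmd3* for *Bcl2l1* (0.751), *Mrpl18* for *Bcl2* (0.695), *Eif4a1* for *Bax* (0.810), *Denr* for *Bak1* (0.796), *Sp1* for *Bid* (0.780), *Hsd17b12* for *Bbc3* (0.728) and *Vamp8* for *Pmaip1* (0.778). In either cell type *Bcl2a1b* was closest to its own paralog, whose count may hold the same molecules, so this r is not read as shared regulation.

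In the mouse build GRCm38.p6, *Bcl2l11* (gene 12125) lies at chr2:128126038-128162547, *Bcl2l1* at chr2:152758732-152833803, *Bcl2* at chr1:106538176-106714290, *Mcl1* at chr3:95656944-95663179, *Bid* at chr6:120893119-120917062, *Bbc3* at chr7:16308398-16318334, *Bax* at chr7:45461695-45466903 and *Bak1* at chr17:27019812-27028627. The A1 genes lie together, *Bcl2a1d* at chr9:88723288-88731850, *Bcl2a1a* at chr9:88956920-88962416 and *Bcl2a1b* at chr9:89199273-89207838. RefSeq promoters of 300 bases on that build were held for 9 members, 14 in all, and were searched on both strands for the FOXO letters GTAAACA, or TGTTTAC on the other strand. These letters stood in 3.65% of all 32851 promoters of that length and in 2 of the members' 14, 1 of the 2 of *Bcl2l11* and 1 of the 3 of *Bbc3*. A match is a description of the letters and not a site. The first promoter of *Bcl2l11*, chr2:128125788-128126087 on the plus strand, is shown because it belongs to the member with the largest difference between TAM groups, with the FOXO letters at position 24 in capitals.
Bcl2l11: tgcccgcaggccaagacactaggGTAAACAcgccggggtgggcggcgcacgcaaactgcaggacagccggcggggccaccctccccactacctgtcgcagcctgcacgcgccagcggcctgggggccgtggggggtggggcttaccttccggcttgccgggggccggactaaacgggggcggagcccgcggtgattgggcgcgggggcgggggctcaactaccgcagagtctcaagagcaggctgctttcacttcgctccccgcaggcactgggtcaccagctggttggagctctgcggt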

How the data were processed

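The deposited count table gives barcoded molecules per gene and library, which the authors made by digital RNA sequencing of sorted cells, mapping with STAR to mm10 and counting molecules. The members and all gene lists were chosen with earlier results of these data known. Counts were fitted with edgeR 4.0.16 in R 4.3.3 (TMM scaling, quasi-likelihood F-test, 1 coefficient per group) in 18 TAM libraries (9469 genes), 18 CD8+ T cell libraries (6663) and all 36 (8477), for genes with a mean DESeq2-normalized number above 1, with Benjamini-Hochberg adjustment over all genes and a threshold of 0.05. Standard errors come from the fit, and 95% intervals are 1.96 SE to each side. The fits covered every comparison, but a p of *Bcl2l11* is given only in T cell comparisons and between cell types in GABA-treated mice, and no p of a member is given between *muMt*-/- and WT TAMs or for the difference of that effect between cell types. Named genes were the members, list genes that passed in a comparison or else, over the pooled lists, those with the highest and lowest log2 fold change at a mean of at least 5, and the genes with the highest Pearson r to each member.

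Marker lists covered macrophages, T cells, neutrophils, dendritic cells, B cells, tumour and stroma, and nuclear RNA. Alternatives were DESeq2 size factors, total molecules, the DESeq2 1.42.0 Wald test, the filterByExpr filter, no filter, log2 molecules per library as a covariate within a cell type, the replicate number as a block, and leaving out each library. They were run for the members and the counts, not for the list genes. Values of some list and marker genes are not reported here. Tables and figures used Python 3.11.15 with numpy 2.4.6, pandas 2.3.3, Biopython 1.88 and matplotlib 3.10.9. The fit was tested on simulated data.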

Additional observations from a re-analysis of the deposited data

Results flagged for a closer look

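In 13 of 107 groups of 6 libraries the highest or lowest library stood apart. Its gap to the nearest neighbour, as a share of the group's range, passed Dixon's 95% critical value. Chance gives about 1 in 20 groups for normally distributed values, which small counts and marker sums need not be. The 13 groups are therefore not read as an excess. Of the 60 groups of member values 4 were among them. *Mcl1* in WT TAM replicate 5 was 143 normalized molecules, where the other libraries held 109 to 117. *Pmaip1* in the same library was 0.628, against 4.61 to 6.82. *Bak1* in GABA-treated TAM replicate 1 was 7.97, against 13.7 to 15.1. *Bbc3* in WT TAM replicate 6 was 2.18, against 0.727 to 1.26, values that stand for 1 to 3 molecules.

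The other 9 were sums of marker lists. Macrophage markers summed to 210 in WT T cell replicate 5, against 17.8 to 55.2, and to 722 in *muMt*-/- T cell replicate 1, against 104 to 260. Neutrophil markers summed to 22.8 in WT TAM replicate 5 (others 3.92 to 10.3), to 23.9 in WT T cell replicate 6 (0 to 1.89) and to 32.9 in *muMt*-/- T cell replicate 1 (1.42 to 10.1). Tumour and stroma markers summed to 579 in WT TAM replicate 6 (16.8 to 82.3) and to 306 in GABA-treated TAM replicate 2 (62.9 to 99.3). Nuclear RNAs summed to 377 in WT TAM replicate 1 (421 to 446) and to 1327 in *muMt*-/- TAM replicate 4 (570 to 749).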

How the results depend on the processing

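Apart from leaving out libraries, 591 log2 fold changes of members were recomputed under alternatives. Of 448 whose p is used, 415 kept their direction and side of the threshold, 11 lost a call, 0 gained one and 22 changed sign. Of 143 given without p, 22 changed sign, and 2 moved by more than their SE, *Pmaip1* in *muMt*-/- against WT TAMs to -0.97 with the covariate and *Bcl2l11* between cell types in WT mice to -1.66 with total molecules. Causes were not tested. Members that filterByExpr dropped gave no value there, and the covariate was not used between cell types. *Bcl2l11* in *muMt*-/- against WT TAMs stayed between 1.20 and 1.39 without any 1 library and between 1.20 and 1.32 under the alternatives. It was chosen on this comparison in these libraries, which favours a large estimate, so these ranges are a description and test nothing. With log2 molecules as a covariate 0 members passed there, a count that includes the gene chosen on this comparison and from which nothing is read. Between cell types in WT mice 3 members passed with total molecules and 3 with DESeq2, and leaving out 1 library gave 3 to 5, and in GABA-treated mice 2 to 4. Depth limits *Bcl2*, *Bax*, *Bid*, *Bbc3* and *Pmaip1*, which held at most 19, 18, 19, 3 and 8 molecules in any library. In T cells it also limits *Bcl2l1* and *Bak1*, which held at most 9 and 8 molecules there. The labels do not say whether libraries with the same replicate number are paired, and the replicate block changed no member's call.

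Signs that changed are given as log2 fold changes. Given without p, *muMt*-/- against WT TAMs: *Pmaip1* -0.0181 with total molecules, -0.00555 with no filter and -0.97 with the covariate, which also turned *Bcl2* (-0.0357), *Bax* (0.0498) and *Bid* (0.0153). GABA effect in TAMs minus T cells: *Bcl2l11* 0.0170 with total molecules. B cell loss effect in TAMs minus T cells: with DESeq2 size factors *Bcl2a1b* 0.17, *Mcl1* 0.0915, *Bax* 0.17, *Bid* 0.0336 and *Pmaip1* 0.16, with DESeq2 *Bcl2a1b* 0.17, *Mcl1* 0.0858, *Bax* 0.17, *Bid* 0.0412 and *Pmaip1* 0.22, with total molecules *Bcl2a1b* 0.0617, *Bax* 0.0700 and *Pmaip1* 0.0591, and with filterByExpr *Bcl2a1b* 0.11 and *Mcl1* 0.0330. Those whose p is used follow. GABA-treated against *muMt*-/- TAMs: *Pmaip1* 0.0177 with the covariate. GABA-treated against WT TAMs: *Bax* -0.0105 with total molecules, -0.00069 with DESeq2, -0.0213 with no filter and -0.00795 with the replicate block. *muMt*-/- against WT T cells: *Bcl2l11* -0.0588 with DESeq2 size factors, -0.0778 with total molecules, -0.0776 with DESeq2 and -0.0653 with filterByExpr, and *Pmaip1* -0.0473 with DESeq2 size factors, -0.0584 with total molecules, -0.0195 with DESeq2 and -0.0571 with the covariate. GABA-treated against WT T cells: *Mcl1* -0.0198 with DESeq2 size factors, -0.0271 with total molecules, -0.0166 with DESeq2 and -0.0607 with filterByExpr, *Bcl2l11* 0.17 and *Bcl2l1* -0.11 with the covariate. GABA effect in TAMs minus T cells: *Bcl2a1b* 0.0566 with total molecules, *Mcl1* -0.00402 with no filter and -0.0452 with the replicate block.

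Leaving out 1 library turned these signs, given as ranges. *muMt*-/- against WT TAMs: *Bcl2* -0.0426 to 0.50, *Bid* -0.52 to 0.0763 and *Pmaip1* -0.37 to 0.34. B cell loss effect in TAMs minus T cells: *Bcl2l1* -0.0642 to 0.57, *Bcl2a1b* -0.16 to 0.0677, *Mcl1* -0.47 to 0.0515, *Bax* -0.46 to 0.21, *Bid* -0.45 to 0.14 and *Pmaip1* -0.84 to 0.56. GABA-treated against *muMt*-/- TAMs: *Bcl2l1* -0.0464 to 0.14, *Bcl2a1b* -0.0860 to 0.00898, *Bak1* -0.38 to 0.00382 and *Bid* -0.28 to 0.21. GABA-treated against WT TAMs: *Bax* -0.13 to 0.17. *muMt*-/- against WT T cells: *Bcl2l11* -0.17 to 0.15, *Bax* -0.44 to 0.14 and *Pmaip1* -0.54 to 0.82. GABA-treated against *muMt*-/- T cells: *Bcl2a1b* -0.13 to 0.0999 and *Bak1* -0.0647 to 0.34. GABA-treated against WT T cells: *Mcl1* -0.11 to 0.46. Between cell types: *Bax* -0.41 to 0.29 and *Pmaip1* -0.44 to 0.61 in WT mice, *Pmaip1* -0.62 to 0.37 in *muMt*-/- mice and *Bcl2l11* -0.38 to 0.0903 in GABA-treated mice. GABA effect in TAMs minus T cells: *Bcl2a1b* -0.15 to 0.0561, *Mcl1* -0.0780 to 0.17 and *Bcl2l11* -0.25 to 0.26.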
